A study of Oryctolagus cuniculus with 30 samples.

Results

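Fibronectin and 9 matricellular proteins were followed at the RNA level in rabbit vocal folds. The members were chosen by gene symbol (FN1, POSTN, TNC, SPARC, THBS1, THBS2, CCN1, CCN2, TGFBI and SPP1), and 10 of 10 were found among 31346 counted genes. All 10 also passed the filter on low counts in every comparison. Mucosa was dissected from both vocal folds of 15 New Zealand white rabbits (5 groups of 3), and each fold gave its own RNA sequencing library, 30 in all. In 4 groups the superficial mucosa of both folds had been stripped. Both folds of 3 of these groups were injected with 20 µL of a material 7 days after the injury: type I collagen (Col1), VFLP (man) or VFLP (au). By the series title the last pair are hydrogels derived from lamina propria of the vocal fold; they are written VFLP_man and VFLP_au here, and the labels do not explain the abbreviations. The fourth stripped group, injury_only, was not injected, and control animals were neither injured nor injected. Tissue of the stripped groups was taken 28 days after treatment. From which day this was counted in injury_only is not clear from the labels, and they list no time for control. No group received a sham injection.

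Fibronectin is a large glycoprotein that cells assemble into fibrils through integrins, and these fibrils serve as an early scaffold for collagen in healing wounds. Matricellular proteins are secreted into the same matrix, where they modulate cell adhesion, collagen assembly and growth factor signalling more than they bear load. Fibronectin is a normal component of the vocal fold lamina propria, and many of these genes are known to be induced in fibroblasts by transforming growth factor beta (TGF-beta) and in young scars.

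The libraries held 14.2 to 31.9 M reads assigned to genes. Levels are in CPM, reads per M gene reads with TMM scaling, after the 2 folds of an animal were summed, and mean ± SD is over 3 animals. They are not scaled by gene length, so levels were not compared between genes. Markers of vocal fold tissue were present, and their make-up differed between groups. The 18 skeletal muscle genes found of 24 listed held 0.582 ± 0.265% of gene reads in Col1, 0.241 ± 0.197% in VFLP_man, 1.07 ± 0.416% in VFLP_au, 1.6 ± 0.598% in injury_only and 5.54 ± 1.33% in control. The 15 fibroblast genes held 0.0657 ± 0.0309% in Col1, 0.0553 ± 0.00555% in VFLP_man, 0.0925 ± 0.0145% in VFLP_au, 0.11 ± 0.0248% in injury_only and 0.214 ± 0.0328% in control. The summed share of the 11 macrophage genes was higher than in control, with means of 0.0161 to 0.0202% in the 4 stripped groups and 0.0073% in control. Its genes were called in both directions, with 2 higher and 2 lower in Col1, 2 and 1 in VFLP_man, 1 and 0 in VFLP_au, and 2 and 1 in injury_only, each against control. In such mixed tissue, fewer cells of a type and less RNA per cell cannot be told apart. All injected animals were in batch D and all control libraries in batch C, per the labels; injury_only was in batch C but for 1 fold, so that material and batch against control cannot be told apart.

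**Figure D1:**
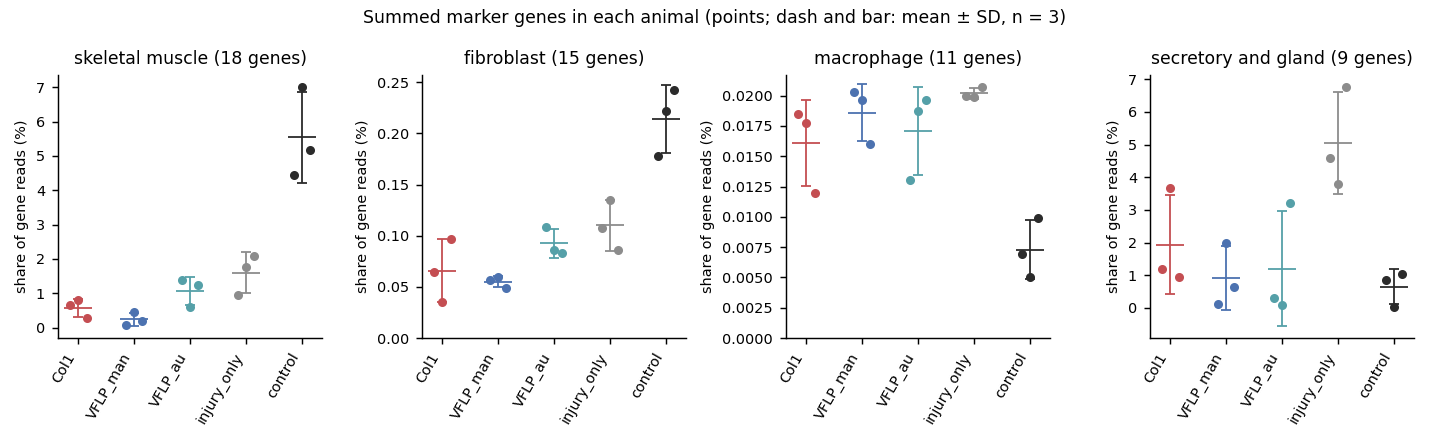
Share of gene reads (%) held by 4 lists of cell type markers in each animal. Points are animals, dashes and bars mean ± SD of 3 animals. Skeletal muscle and fibroblast genes were highest in control (means of 5.54% and 0.214%), macrophage genes lowest there (0.0073%), and secretory genes highest in injury_only (5.05%).

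FN1, which encodes fibronectin, had 3 tiers of expression by animal. FN1 was at 70.7, 52.2 and 93.7 CPM in the Col1 animals. It was at 154, 96.5 and 58.0 CPM in VFLP_man and at 153, 94.2 and 113 CPM in VFLP_au. It was at 237, 289 and 158 CPM in injury_only and at 551, 400 and 404 CPM in control. Every injected animal thus lay below every injury_only animal, and every injury_only animal below every control animal. The lower boundary was narrow, at 154 CPM in the highest injected animal against 158 CPM in the lowest injury_only animal. Single folds overlapped between tiers, at 231 to 693 CPM in control and 156 to 362 CPM in injury_only, with up to 211 CPM in VFLP_au. Neither step between tiers passed the tests given below, and the share of all genes with such tiers was not counted. The 3 materials overlapped each other. The means were 72.2 ± 20.8 CPM in Col1, 103 ± 48.2 CPM in VFLP_man, 120 ± 30.2 CPM in VFLP_au, 228 ± 66.0 CPM in injury_only and 452 ± 86.0 CPM in control, a 6.26-fold range.

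POSTN encodes periostin, which binds fibronectin and collagen and promotes their assembly. It was at 41.6, 33.3 and 67.2 CPM in Col1, at 102, 80.6 and 58.2 CPM in VFLP_man and at 69.2, 53.6 and 63.2 CPM in VFLP_au. It was at 79.6, 90.9 and 54.7 CPM in injury_only and at 168, 134 and 116 CPM in control. All 12 stripped animals were below the lowest control animal, and the 4 stripped groups overlapped each other in every neighbouring pair of the order of means. Of all genes, 21.9 to 24.1% were lower than control without overlap in single stripped groups. The share for the 12 animals together was not counted. TNC, which encodes tenascin-C, a modulator of cell adhesion to fibronectin, had a different order, with injury_only highest. It was at 3.2, 5.03 and 1.84 CPM in Col1, at 10.1, 4.39 and 5.43 CPM in VFLP_man and at 4.79, 6.03 and 2.37 CPM in VFLP_au. It was at 8.08, 8.63 and 6.71 CPM in injury_only and at 8.1, 4.8 and 2.4 CPM in control. The injury_only animals lay close together and above all Col1 and VFLP_au animals, while the control animals spread over the range of the other groups.

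SPARC encodes a collagen-binding glycoprotein that takes part in collagen fibril assembly. It was at 573, 478 and 886 CPM in Col1, at 359, 445 and 533 CPM in VFLP_man and at 663, 638 and 431 CPM in VFLP_au. It was at 515, 787 and 465 CPM in injury_only and at 1160, 1170 and 640 CPM in control. Of the control animals, 2 stood above all other animals, and animal 3 lay within the range of the stripped groups. TGFBI encodes a TGF-beta-induced protein that links collagens to integrins. It was at 24.1, 19.7 and 30.4 CPM in Col1, at 34.2, 27.5 and 22.1 CPM in VFLP_man and at 27.3, 33.0 and 24.7 CPM in VFLP_au. It was at 38.6, 53.1 and 29.3 CPM in injury_only and at 38.0, 49.1 and 42.6 CPM in control. The 9 injected animals were all below the control animals, whereas injury_only and control overlapped. The shares of all genes lower than control without overlap were 23.0, 24.1 and 21.9% in Col1, VFLP_man and VFLP_au alone. No share was counted for the 9 animals together.

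The thrombospondins are matricellular proteins of which THBS1 is known to activate latent TGF-beta and THBS2 to regulate collagen fibril assembly. THBS1 was at 84.6, 251 and 37.3 CPM in Col1, at 13.7, 20.3 and 42.1 CPM in VFLP_man and at 21.4, 30.6 and 53.1 CPM in VFLP_au. It was at 85.0, 43.6 and 97.0 CPM in injury_only and at 72.4, 16.9 and 44.9 CPM in control. The highest mean, in Col1, rested on 1 animal, and all neighbouring groups overlapped. THBS2 was low, with 14 reads in its shallowest library. It was at 1.83, 3.05 and 3.48 CPM in Col1, at 5.36, 1.17 and 1.07 CPM in VFLP_man and at 3.2, 1.78 and 1.17 CPM in VFLP_au. It was at 3.61, 4.15 and 2.82 CPM in injury_only and at 5.95, 6.39 and 3.37 CPM in control. Its groups overlapped in every neighbouring pair of the order of means, and the VFLP_man mean rested on animal 1.

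CCN1 and CCN2 encode secreted integrin-binding proteins whose transcription is known to respond to YAP and TEAD factors and, for CCN2, to TGF-beta. CCN1 was at 10.2, 12.2 and 22.5 CPM in Col1, at 8.35, 17.4 and 9.25 CPM in VFLP_man and at 14.5, 12.0 and 14.6 CPM in VFLP_au. It was at 10.7, 33.9 and 9.65 CPM in injury_only and at 18.9, 73.7 and 16.6 CPM in control. One animal in control and 1 in injury_only stood far above the rest of their groups. CCN2 had the reverse order of FN1 by group mean. It was at 529, 354 and 635 CPM in Col1, at 603, 474 and 324 CPM in VFLP_man and at 350, 325 and 469 CPM in VFLP_au. It was at 132, 493 and 344 CPM in injury_only and at 339, 238 and 248 CPM in control. Col1 animals, first in the order of means, were all above control animals, last in it, though by a small margin (354 against 339 CPM). Every neighbouring pair of groups in that order overlapped.

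SPP1 encodes osteopontin, an integrin and CD44 ligand known from macrophages, epithelia and mineralised tissue. SPP1 was at 27.7, 7.31 and 7.53 CPM in Col1, at 4.5, 1.93 and 58.6 CPM in VFLP_man and at 19.9, 5.23 and 80.1 CPM in VFLP_au. It was at 57.9, 34.7 and 9.65 CPM in injury_only and at 22.7, 1.83 and 4.2 CPM in control. High and low animals occurred in every group, and no pair of neighbouring groups was separated. The summed share of the 11 macrophage genes lay within 0.012 to 0.0207% in the 12 stripped animals. A single gene and a sum of 11 genes are unlike measures of spread, and the part of macrophages in SPP1 was not tested.

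**Figure D2:**
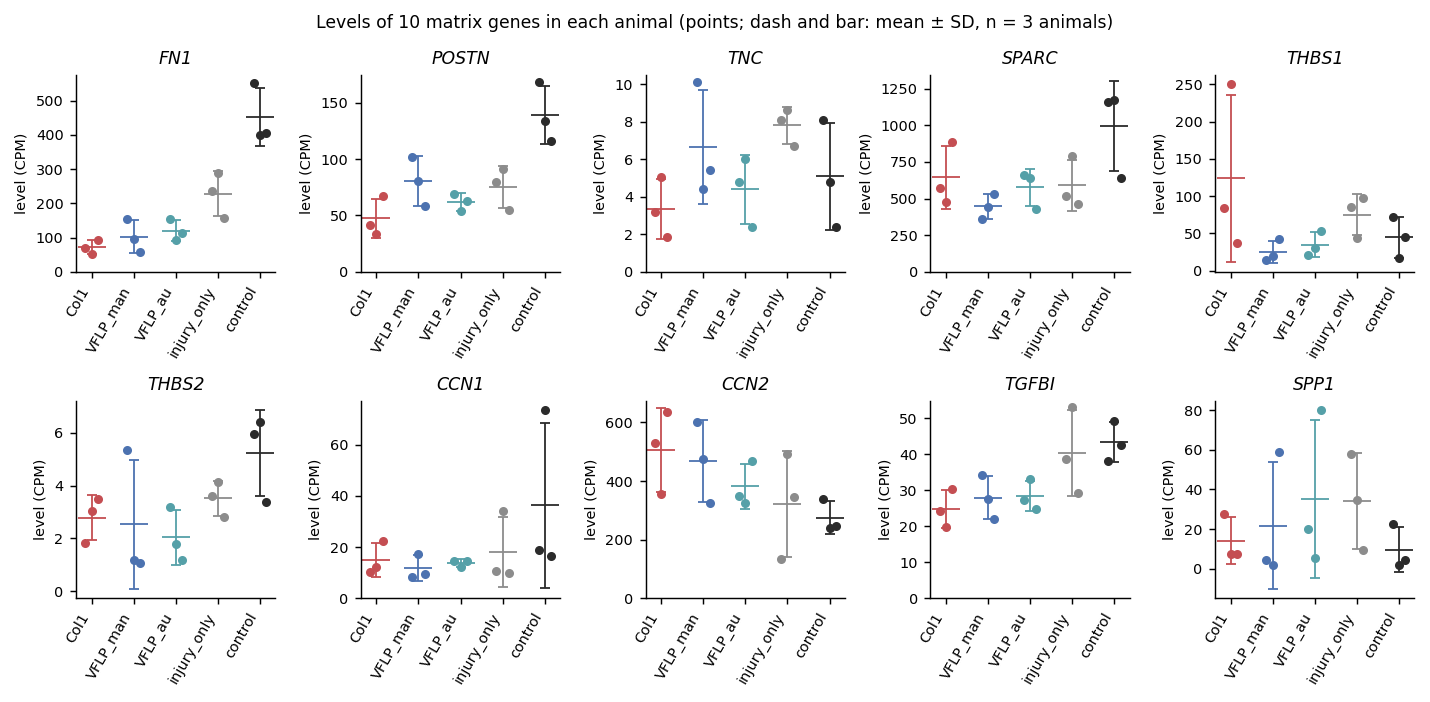
Level (CPM) of the 10 genes in each animal by group. Points are animals, dashes and bars mean ± SD of 3 animals. FN1 falls into 3 tiers (52.2 to 154 CPM in injected, 158 to 289 CPM in injury_only and 400 to 551 CPM in control animals), POSTN separates control from the rest, and SPP1 and THBS1 spread widely within groups.

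The comparison of injury_only with control asks what remained of the injury without any injection. Of the fibronectin and matricellular genes, POSTN passed the test and was lower in injury_only. Its level was 75.1 ± 18.5 CPM in injury_only and 139 ± 26.1 CPM in control, a 1.82-fold decrease (log2 fold change -0.86, SE 0.28, edgeR adjusted p = 0.0471). FN1 was 1.85-fold lower (228 against 452 CPM, log2 fold change -0.89, SE 0.35, edgeR adjusted p = 0.0901). SPARC was 1.68-fold lower (589 against 993 CPM, log2 fold change -0.75, SE 0.31, edgeR adjusted p = 0.103). Neither of these changes passed, although FN1, like POSTN, did not overlap between the groups. The means in CPM include the batch D fold of injury_only animal 1. In the fit the batch term took up that fold, so the fold changes rest on the batch C libraries and differ somewhat from ratios of the means. Without a batch term the log2 fold change of FN1 was -0.99 (edgeR adjusted p = 0.0576). One member of 10 called lower stood beside 13.7% of all tested genes, and 2 non-overlapping lower members beside 21.9%. The 10 log2 fold changes ran from -1.01 (CCN1) to 1.83 (SPP1), with a median of -0.29 against 0.02 for all genes. The POSTN call was at the edge of the threshold: it was lost on leaving out any 1 of the 6 animals (adjusted p of 0.056 to 0.146) and in the fit with a replicate block (adjusted p = 0.0633). DESeq2 called POSTN (adjusted p = 0.0139), FN1 (0.0415) and SPARC (0.0498) lower, 3 of 10 members beside 18.2% of all genes. The sides differed in size: from left folds alone the log2 fold change was -0.28 for POSTN (adjusted p = 0.698) and -0.29 for FN1 (0.705), and from right folds alone it was -1.76 (0.03) and -1.73 (0.0277). In the right-fold fit the batch term likewise took up the fold of injury_only animal 1. The right-fold values thus rest on injury_only animals 2 and 3 against control. Muscle and fibroblast markers were also lower in injury_only, where 11 of 18 muscle genes and 6 of 15 fibroblast genes were called lower. Their part in the POSTN result was not tested beyond a fit with the muscle level as a covariate, which gave POSTN a log2 fold change of -1.41 (adjusted p = 0.0686).

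Each material was then compared with injury_only, to ask how injected folds differed from injured folds left alone; the 3 comparisons share the injury_only animals. FN1 had the smallest p of the members in all 3, and it was lower without overlap each time, but it did not pass the threshold. In Col1 it was 3.16-fold lower than in injury_only (log2 fold change -1.66, SE 0.35, edgeR adjusted p = 0.267). In VFLP_man it was 2.22-fold lower (log2 fold change -1.15, SE 0.35, edgeR adjusted p = 0.123). In VFLP_au it was 1.89-fold lower (log2 fold change -0.92, SE 0.35, edgeR adjusted p = 0.362). In Col1 the fold change was larger and the adjusted p was also larger than in VFLP_man, since the adjustment runs over all genes of a comparison. DESeq2 called FN1 in Col1 (adjusted p = 0.00161) and in VFLP_man (0.0218) but not in VFLP_au (0.148).

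The next members by p were TGFBI, TNC and THBS1. TGFBI differed by a log2 fold change of -0.70 in Col1 (SE 0.24, edgeR adjusted p = 0.285), -0.53 in VFLP_man (SE 0.23, 0.275) and -0.51 in VFLP_au (SE 0.23, 0.388). TNC was at 3.35 ± 1.6 CPM in Col1 and 7.81 ± 0.988 CPM in injury_only (log2 fold change -1.22, SE 0.50, edgeR adjusted p = 0.32). TNC in VFLP_au, at 4.39 ± 1.86 CPM, differed from injury_only by a log2 fold change of -0.83 (SE 0.50, edgeR adjusted p = 0.469). THBS1 was at 25.4 ± 14.9 CPM in VFLP_man and 75.2 ± 28 CPM in injury_only (log2 fold change -1.57, SE 0.70, edgeR adjusted p = 0.281). By edgeR 0 of 10 members were called in each comparison. Of all tested genes, 0.0% were called in Col1, 1.06% in VFLP_man and 0.0% in VFLP_au. At an unadjusted p under 0.05, 4 members were found in Col1, 3 in VFLP_man and 1 in VFLP_au, beside 14.2%, 17.2% and 12.9% of all genes. DESeq2 called 1, 1 and 0 members, beside 2.14%, 7.03% and 1.13% of all genes. In each comparison 2 members were lower without overlap, beside 10.8%, 13.2% and 9.03% of all genes: FN1 with TNC in Col1, FN1 with THBS1 in VFLP_man, and FN1 with TNC in VFLP_au. Median log2 fold changes of the 10 members were -0.50, -0.50 and -0.45 in this order of materials, against 0.00, 0.00 and 0.01 for all genes. Tissue markers differed here as well. In VFLP_man 6 of 18 muscle genes, 2 of 9 smooth muscle and myofibroblast genes, 1 of 15 fibroblast genes and 1 of 10 endothelial genes were called lower than in injury_only, with list medians of -3.10, -2.44, -0.98 and -1.12 on the log2 scale. No gene of these lists was called in Col1 or VFLP_au, where the fibroblast medians were -0.88 and -0.40. The 9 secretory genes held 1.94 ± 1.51% of reads in Col1, 0.913 ± 0.978% in VFLP_man, 1.2 ± 1.76% in VFLP_au and 5.05 ± 1.55% in injury_only. The part of these markers in the member values was not tested beyond a fit with the muscle level as a covariate, in which no member was called.

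Batch runs along with these comparisons, since per the labels the injected animals were in batch D and injury_only, but for the right fold of animal 1, in batch C; the labels give the batch as a letter and do not say what it stands for. That fold, the one injury_only library in batch D, had 191 CPM of FN1, above 17 of the 18 injected folds (38.6 to 211 CPM). For TGFBI it had 39.3 CPM, above all 18 injected folds (18.8 to 35.9 CPM), and for TNC it had 7.08 CPM, above 17 of 18. For CCN2 it had 155 CPM, below all 18 (258 to 661 CPM). In batch C, the right folds of injury_only animals 2 and 3 had 385 and 547 CPM of CCN2, within the injected range. The left fold of animal 2 had 605 CPM, also within it, and the left fold of animal 3 had 99.6 CPM, below it. For the remaining members the batch D fold of injury_only also lay within the injected range. It was above 16 of 18 injected folds for THBS1 and for SPP1, 14 for POSTN, 13 for THBS2, 10 for SPARC and 6 for CCN1. The left fold of injury_only animal 1, in batch C, had 291 CPM of FN1, 39.2 CPM of TGFBI, 9.36 CPM of TNC and 114 CPM of CCN2. The log2 difference of -0.61 between the FN1 values of the right and left folds of this animal exceeded that of 4 of the 14 animals whose folds shared a batch. A single library gives no test, and the part of batch in these differences was not tested by it.

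Comparisons between the materials found no member past the threshold. THBS1 gave the smallest p. It was at 25.4 ± 14.9 CPM in VFLP_man and 124 ± 112 CPM in Col1, a 4.9-fold difference (log2 fold change -2.29, SE 0.72, edgeR adjusted p = 0.297). It was at 35.1 ± 16.3 CPM in VFLP_au and 124 ± 112 CPM in Col1 (log2 fold change -1.83, SE 0.71, edgeR adjusted p = 0.995). Both differences lean on Col1 animal 2, at 251 CPM, and Col1 overlapped both hydrogels. DESeq2 called THBS1 in VFLP_man against Col1 (adjusted p = 0.0352). POSTN was higher in VFLP_man than in Col1 by a log2 fold change of 0.77 (SE 0.28, edgeR adjusted p = 0.373), and TNC by 0.99 (SE 0.50, 0.526). FN1 was higher in VFLP_au than in Col1 by 0.74 (SE 0.35, edgeR adjusted p = 0.995), the one member without overlap there (94.2 against 93.7 CPM at the boundary), beside 4.81% of all genes higher without overlap. POSTN in VFLP_au against Col1 differed by 0.39 (SE 0.28, edgeR adjusted p = 0.995). Between VFLP_man and VFLP_au the smallest p values belonged to SPARC, TNC and POSTN, with log2 fold changes of -0.37, 0.59 and 0.38 (SE 0.31, 0.50 and 0.28, edgeR adjusted p of 0.801, 0.805 and 0.785).

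By edgeR 0 of 10 members were called in each of these 3 comparisons. Of all genes, edgeR called 0.0% for VFLP_man against Col1, 0.0% for VFLP_au against Col1 and 0.0505% for VFLP_man against VFLP_au. At an unadjusted p under 0.05, 2, 1 and 0 members were found in the same order, beside 10.3%, 4.65% and 8.36% of all genes. DESeq2 called 1, 0 and 0 members, beside 2.18%, 0.196% and 2.17% of all genes. A p above the threshold does not show that the materials act alike on these genes.

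The materials were also compared with control, which asks how far the injected folds were from uninjured tissue; the 3 comparisons share the control animals, and all of them set batch D against batch C. Fibronectin and periostin RNA were called lower with every material, although the periostin call in VFLP_man was kept in 6 of 16 alternative settings. FN1 was 6.26-fold lower in Col1 (log2 fold change -2.65, SE 0.37, edgeR adjusted p = 0.000493). It was 4.4-fold lower in VFLP_man (log2 fold change -2.14, SE 0.36, edgeR adjusted p = 0.000741) and 3.75-fold lower in VFLP_au (log2 fold change -1.91, SE 0.36, edgeR adjusted p = 0.00315). POSTN fell 2.95-fold in Col1 (log2 fold change -1.56, SE 0.29, edgeR adjusted p = 0.00193), 2.25-fold in VFLP_au (-1.17, SE 0.28, 0.0107) and 1.73-fold in VFLP_man (-0.79, SE 0.28, 0.0424).

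One further member passed in Col1 and another in VFLP_man. TGFBI was 1.75-fold lower in Col1 than in control (24.7 ± 5.34 against 43.3 ± 5.59 CPM, log2 fold change -0.81, SE 0.24, edgeR adjusted p = 0.021). SPARC was 2.23-fold lower in VFLP_man (446 ± 86.8 against 993 ± 306 CPM, log2 fold change -1.15, SE 0.31, edgeR adjusted p = 0.0129). TGFBI, next by p in VFLP_au, was lower there too (log2 fold change -0.61, SE 0.24, edgeR adjusted p = 0.072) and did not pass. With both folds summed no member was called higher. CCN2 in Col1, the one member higher without overlap, had 506 ± 142 CPM against 275 ± 55.4 CPM (log2 fold change 0.88, SE 0.40, edgeR adjusted p = 0.111).

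In Col1 3 of 10 members were called lower, beside 18.6% of all genes, in VFLP_man 3 of 10 beside 20.5%, and in VFLP_au 2 of 10 beside 16.7%. Lower without overlap were 3, 4 and 5 members, beside 23.0%, 24.1% and 21.9% of all genes, and 1 member was higher without overlap in Col1 beside 22.8%. The median log2 fold changes of the 10 members were -0.71, -0.81 and -0.70, against 0.12, 0.13 and 0.11 for all genes. All 18 skeletal muscle genes in Col1 and VFLP_man and 16 of 18 in VFLP_au were called lower than control, as were 14, 15 and 12 of the 15 fibroblast genes. With the muscle level as a covariate no member was called against control (0, 1 and 0 of 17770 genes in the same order), while the log2 fold changes of FN1 were as large or larger (-3.76, -3.82 and -2.79, adjusted p of 0.269, 0.267 and 0.355). A batch term rests on the batch D fold of injury_only animal 1 against the batch C libraries of that group, so it also holds differences between animals. With this term no member was called either (0, 29 and 0 of 17815 genes in Col1, VFLP_man and VFLP_au). FN1 then had log2 fold changes of -2.25, -1.74 and -1.52 (adjusted p of 0.222, 0.164 and 0.474). Among single animals, the TGFBI call was lost without control animal 2 or Col1 animal 1 or 2, and the SPARC call without VFLP_man animal 1. The POSTN call of VFLP_man was lost without control animal 1 or 2 or VFLP_man animal 2 or 3, with a replicate block (adjusted p = 0.0536), with no filter on low counts (0.0538) and from the 2 groups alone (0.0663). From left folds alone it was as small as -0.32 on the log2 scale (adjusted p = 0.589), and from right folds alone it was -1.41 (0.0187).

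**Figure D3:**
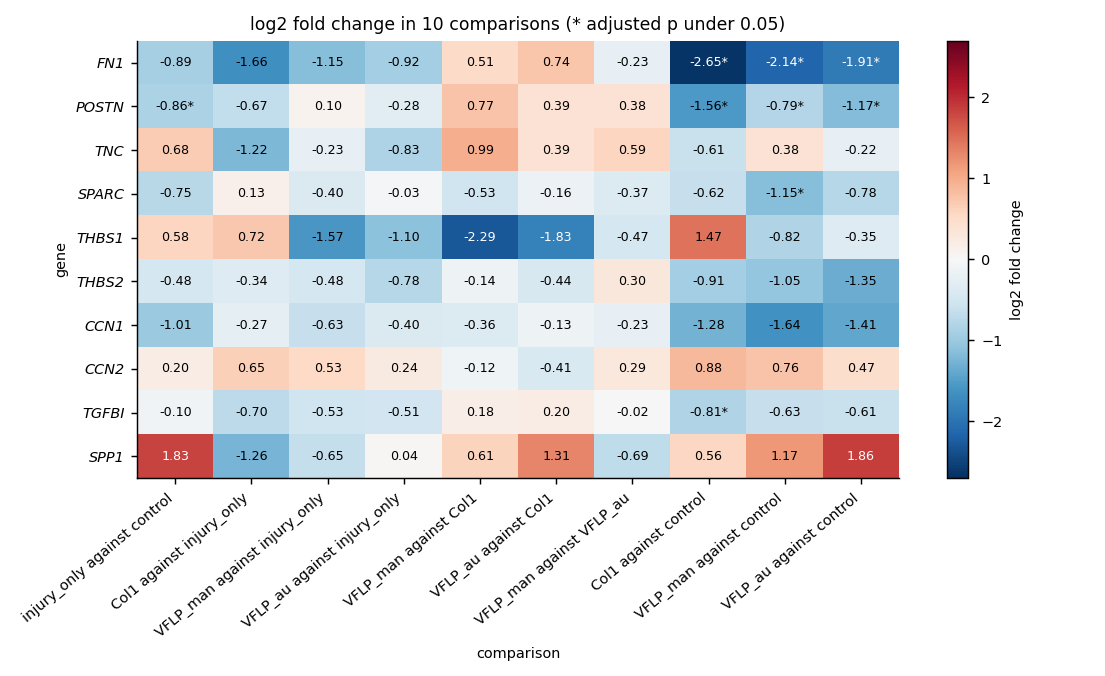
Log2 fold change of the 10 genes (down the page) in 10 comparisons (across), with the first named group over the second. Colour and printed numbers give the value, and an asterisk marks an edgeR adjusted p under 0.05. FN1 and POSTN were negative with an asterisk for all 3 materials against control. POSTN also carries one for injury_only against control, and no cell of a material against injury_only or of 2 materials carries one.

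Genes related to the members were listed by family and function. Their calls come from the same fits: of the 91 genes tested in 5 lists, a batch term left 1 called (LRP1 in VFLP_man) in the materials against control, and the muscle covariate left 0 there and 0 in injury_only against control. The list counts below stand beside those of all genes. In injury_only against control, 1484 of 17815 genes were called higher and 2449 lower. Against control, 2396, 2972 and 1918 of 17770 were called higher in Col1, VFLP_man and VFLP_au, and 3306, 3651 and 2966 lower. Of 14 tested relatives in the tenascin, SPARC, thrombospondin, CCN, fasciclin and SIBLING families, 2 fell in injury_only against control and none rose. SPARCL1 (hevin), the nearest relative of SPARC, fell 5.96-fold (115 ± 53.4 CPM in injury_only and 746 ± 332 CPM in control, edgeR adjusted p = 0.00185). FSTL1 fell 1.79-fold (194 ± 34.2 and 347 ± 25.1 CPM, edgeR adjusted p = 0.00671). Against control, 7 relatives fell in Col1, 7 in VFLP_man and 6 in VFLP_au, and 1, 2 and 0 rose. SPARCL1 fell 9.98-fold in Col1 (edgeR adjusted p = 0.00033), 17.0-fold in VFLP_man (5.98e-05) and 7.74-fold in VFLP_au (0.000906). THBS3, a thrombospondin, fell 2.26-fold, 3.09-fold and 2.21-fold in the same order (edgeR adjusted p of 0.00636, 0.000757 and 0.00964). The list median was 0.30 in injury_only against control, opposite in sign to its called members, and -0.94, -1.09 and -0.90 for the materials against control.

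Of 19 tested cell surface receptors for these proteins, 4 fell and 1 rose in injury_only against control. LRP1, an endocytic receptor that binds thrombospondins, fell 2.15-fold (42.7 ± 6.23 CPM in injury_only and 93.9 ± 15.4 CPM in control, edgeR adjusted p = 0.00196). CD36, a thrombospondin receptor that muscle, fat and capillaries also express, fell 11.7-fold (12.2 ± 6.67 and 160 ± 88.1 CPM, edgeR adjusted p = 0.00214), beside the lower muscle share. ITGA4, the integrin subunit of leukocytes that binds fibronectin, rose 4.5-fold (5.61 ± 2.31 and 1.23 ± 0.341 CPM, edgeR adjusted p = 0.00443), beside higher macrophage and lymphocyte shares. The lymphocyte genes held 0.00131% of reads in injury_only and 0.000312% in control. Of 10 lymphocyte genes tested, 4 were called higher and 0 lower. Of 11 macrophage genes, 2 were called higher and 1 lower. The cell source of ITGA4 was not tested. Against control, 8 receptors fell in Col1, 10 in VFLP_man and 9 in VFLP_au, and 3, 2 and 0 rose. LRP1 fell 3.84-fold, 3.8-fold and 2.87-fold (edgeR adjusted p of 0.000293, 4.51e-05 and 0.00084). ITGB6, the epithelial integrin subunit that binds fibronectin and latent TGF-beta, fell 4.49-fold, 6.23-fold and 4.24-fold (edgeR adjusted p of 0.00272, 0.000643 and 0.00477).

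The 21 genes known as YAP and TEAD targets, without CCN1 and CCN2, split evenly in injury_only against control, with 3 higher and 3 lower. AMOTL1, an angiomotin family member, fell 2.97-fold (246 ± 48.1 CPM in injury_only and 789 ± 235 CPM in control, edgeR adjusted p = 0.00112), and AXL, a receptor kinase, fell 2.7-fold (edgeR adjusted p = 0.005). ANKRD1, a nuclear ankyrin repeat protein of stressed muscle, was at 55.6 ± 48.2 CPM in injury_only and 0.346 ± 0.223 CPM in control, with an edgeR adjusted p of 0.0117. In the materials against control 3, 5 and 3 targets rose and 3, 4 and 4 fell, and AMOTL1 fell 3.63-fold, 5.36-fold and 3.2-fold (edgeR adjusted p of 0.000298, 4.51e-05 and 0.00084).

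Of 20 tested genes of the TGF-beta response in matrix cells, 1 rose and 1 fell in injury_only against control. CTHRC1, a secreted protein of scar fibroblasts, rose 3.43-fold (3.06 ± 1.1 CPM in injury_only and 0.919 ± 0.259 CPM in control, edgeR adjusted p = 0.0157), and TGFB3, a TGF-beta ligand, fell 2.02-fold (14.2 ± 3.71 and 28.5 ± 9.28 CPM, edgeR adjusted p = 0.0333). In the materials against control 7, 9 and 4 fell and 0, 1 and 0 rose. FAP, a protease of activated fibroblasts, fell 3.35-fold in Col1 (edgeR adjusted p = 0.00537), 3.5-fold in VFLP_man (0.00353) and 2.47-fold in VFLP_au (0.0256). CTHRC1 rose 5.13-fold in VFLP_man (edgeR adjusted p = 0.00188). Against injury_only, 1 gene of these 4 lists was called with any material: LRP1 in VFLP_man, 1.73-fold lower (24.7 ± 2.76 CPM in VFLP_man and 42.7 ± 6.23 CPM in injury_only), with an edgeR adjusted p just under the threshold of 0.05. Between materials none of these lists held a called gene by edgeR.

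The left and right folds of an animal were handled alike, and right against left asks whether side mattered. Over 14 animals with both folds in the same batch, 0 of 10 members were called by edgeR, beside 0.0% of all genes, and 0 at an unadjusted p under 0.05, beside 7.98%. DESeq2 also called 0, beside 0.0832%. The 3 smallest p values belonged to CCN1, POSTN and TGFBI, with log2 right over left of 0.19 (SE 0.14, edgeR adjusted p = 0.634), -0.29 (SE 0.24, 0.679) and 0.10 (SE 0.12, 0.777). Within groups the sides nevertheless differed, and in opposite directions. FN1 was lower in the right fold of every Col1 animal, at 48.2, 38.6 and 57.5 CPM on the right and 112, 65.5 and 129 CPM on the left. It was higher in the right fold of every control animal, at 693, 657 and 523 CPM on the right and 460, 231 and 298 CPM on the left. Both groups were thus split by side without overlap.

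POSTN followed, at 33.3, 15.0 and 46.9 CPM on the right and 56.9, 51.1 and 86.5 CPM on the left in Col1. In control POSTN was at 200, 228 and 134 CPM on the right and 150, 73.0 and 98.2 CPM on the left. SPARC and THBS2 were likewise lower on the right in all 3 Col1 animals and higher on the right in all 3 control animals. CCN2 went the other way in control, at 260, 111 and 140 CPM on the right and 429, 304 and 316 CPM on the left. A term for the difference in right over left between Col1 and control, chosen after these values were seen, passed for FN1 (log2 difference -2.04, SE 0.48, edgeR adjusted p = 0.0132) and POSTN (-1.98, SE 0.60, 0.0307). For SPARC the difference was -0.91 (SE 0.32, edgeR adjusted p = 0.052), and for THBS2 -1.67 (SE 1.03, 0.25). The 2 of 10 members that passed stood beside 28.2% of all genes, and 4 members opposite in all animals beside 22.9%. TNC and CCN2 were opposite in all animals of VFLP_man and control, beside 5.6% of all genes, and SPP1 in Col1 and VFLP_au, beside 14.7%. None of these passed (edgeR adjusted p of 0.0747, 0.249 and 0.642).

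Skeletal muscle, fibroblast, smooth muscle and myofibroblast, and endothelial markers had the same split. Genes of squamous epithelium had the reverse, at 4.23, 2.92 and 4.43% in right and 2.1, 2.6 and 3.79% in left Col1 folds. In control they held 2.0, 0.13 and 0.8% in right and 2.95, 1.32 and 2.82% in left folds. The other marker lists were not split in all animals of both groups. Skeletal muscle genes held 0.229, 0.623 and 0.0576% of reads in right and 1.44, 0.969 and 0.533% in left Col1 folds, against 7.1, 8.46 and 6.73% in right and 1.46, 6.03 and 3.71% in left control folds. Fibroblast genes held 0.041, 0.028 and 0.0572% in right and 0.106, 0.0429 and 0.141% in left Col1 folds, against 0.2, 0.277 and 0.306% in right and 0.154, 0.184 and 0.183% in left control folds. Their part in the side differences of FN1 and POSTN was not tested. Col1 against control also depended on the side used. From right folds alone 7 members were called (2 higher and 5 lower), beside 46.8% of all genes, and from left folds alone 0, beside 0.108%. In left folds FN1 had a log2 fold change of -1.69 (adjusted p = 0.0589). The FN1 side difference was lost without Col1 animal 1 (adjusted p = 0.051). The POSTN side difference was lost without any 1 of the Col1 animals or control animal 2 or 3 (adjusted p of 0.0577 to 0.09).

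**Figure D4:**
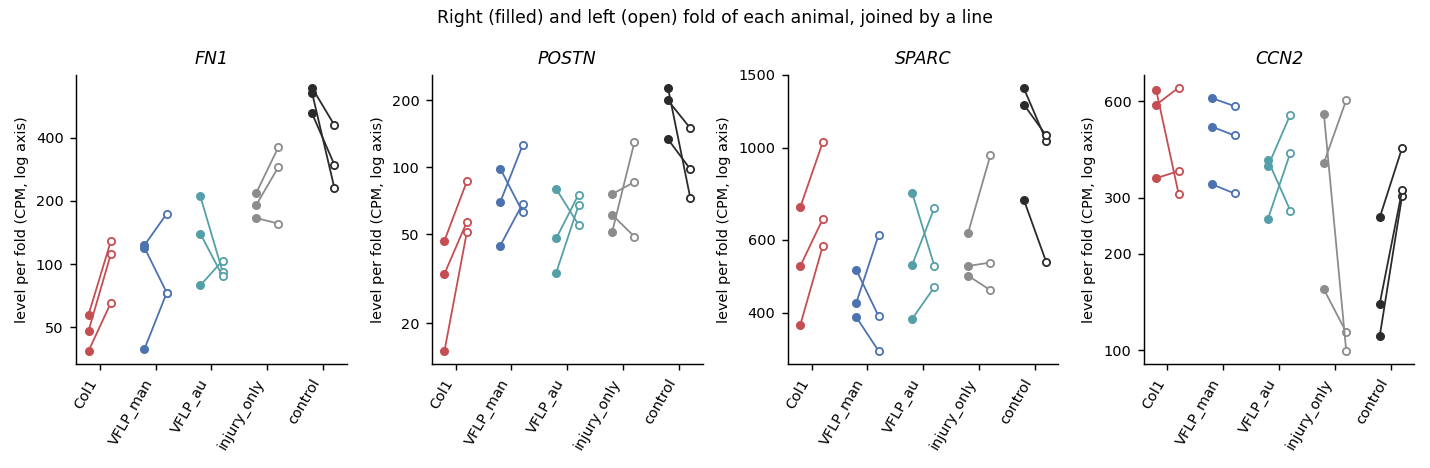
Level (CPM, log axis) of FN1, POSTN, SPARC and CCN2 in the right (filled) and left (open) fold of each animal, joined by a line, by group. For FN1 all 3 Col1 lines rise to the left fold (right 38.6 to 57.5 CPM, left 65.5 to 129 CPM) and all 3 control lines fall to it (right 523 to 693 CPM, left 231 to 460 CPM).

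Animals of a group also differed from each other, and members moved together in this variation. Pearson r and the Spearman rank coefficient (rs) of log2 CPM after removal of group means are given over 15 animals as a description; all genes of an animal share its libraries, depth and tissue make-up. FN1 and POSTN were the closest pair of members, with r 0.93 and rs 0.96. FN1 also went with THBS2 (r 0.69, rs 0.64) and TGFBI (r 0.65, rs 0.63), and POSTN with TGFBI (r 0.69, rs 0.64). THBS1 ran against TGFBI and POSTN, with r -0.83 and rs -0.84 for TGFBI and r -0.63 and rs -0.61 for POSTN. THBS1 also ran against the fibroblast list (r -0.81, rs -0.86), while TGFBI went with it (r 0.73, rs 0.74). FN1 and POSTN went with that list less closely (r 0.53 and 0.58, rs 0.54 and 0.55). Both ran against the smooth muscle and myofibroblast list (r -0.74 and -0.72, rs -0.67 and -0.63), and SPARC against the macrophage list (r -0.71, rs -0.73). TNC and SPP1 had no partner among the members above r 0.59.

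Beyond the members, 12283 named genes with at least 1 CPM were searched for the 3 most alike to each. Each r is thus among the highest of that search, and no chance level was estimated. With group means kept, r of the same pairs ran from -0.12 (CCN2 with THBS4) to 0.95 (THBS1 with PPP1R1B). For FN1 the most alike were POSTN, SERPINB9 and FOXF1 (r 0.93, 0.90 and 0.89, and -0.02 for SERPINB9 with group means kept). For POSTN they were FBN2, FN1 and EDIL3 (each r 0.93). FBN2 encodes a fibrillin of elastic microfibrils and EDIL3 an integrin-binding matrix protein. SPARC was most like HSPG2, which encodes the basement membrane proteoglycan perlecan, then MOXD1 and FSTL1 (r 0.91, 0.90 and 0.87). TGFBI was most like COL13A1, GAREM2 and PDGFRB, a receptor kinase of fibroblasts and pericytes (each r 0.90). CCN2 was most like RND3, then ZNF200 and THBS4, a thrombospondin (r 0.95, 0.90 and 0.88). TNC was most like ELOVL7, DNA2 and XPNPEP1 (r 0.85, 0.81 and 0.81), and THBS1 was most like PIGO, FADS6 and PPP1R1B (each r 0.93). THBS2 was most like ALDH1A3, LRRC42 and SLC35C1 (r 0.91, 0.89 and 0.88, rs 0.84, 0.86 and 0.77). VFLP_man animal 1, high in THBS2, was also above animals 2 and 3 of its group in these genes. It had 87.0 CPM of ALDH1A3 (14.1 and 8.89 in the others), 25.3 of LRRC42 (20.6 and 20.6) and 70.3 of SLC35C1 (17.3 and 20.2). SPP1 was most like AREL1, DCAF7 and QARS1 (each r 0.87).

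CCN1 was most like DUSP1, an immediate-early phosphatase, EDN1, which encodes endothelin-1, and JAM2, an endothelial junction protein (r 0.95, 0.93 and 0.92). The 2 animals with the highest CCN1 were also highest in DUSP1 within their groups, with 30.3, 74.5 and 31.5 CPM in injury_only and 65.1, 188 and 47.3 CPM in control. FOS, an immediate-early transcription factor, was at 7.52, 73.8 and 3.22 CPM in injury_only and at 22.6, 239 and 8.65 CPM in control, highest in the same 2 animals. The 18 immediate-early genes tested, which are also known to respond to tissue handling, went with CCN1 over 15 animals (r 0.79, rs 0.79). They also went with TGFBI (r 0.73, rs 0.69) and CCN2 (r 0.62, rs 0.55) and ran against THBS1 (r -0.62, rs -0.71). CCN1 went with the fibroblast list as well (r 0.71, rs 0.68). The part of handling in the CCN1 values was not tested. As a list, the immediate-early genes held no called gene in injury_only against control, and 3 rose and 1 fell in Col1, 2 rose and 2 fell in VFLP_man, and 3 rose and 0 fell in VFLP_au against control. Of all 17770 genes, 2396, 2972 and 1918 were called higher and 3306, 3651 and 2966 lower in the same order. FOSL2 rose with each material, 1.93-fold, 2.1-fold and 1.87-fold (edgeR adjusted p of 0.00532, 0.00211 and 0.00922). DUSP1 fell 2.96-fold in Col1 and 3.18-fold in VFLP_man (edgeR adjusted p of 0.0239 and 0.0155).

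**Figure D5:**
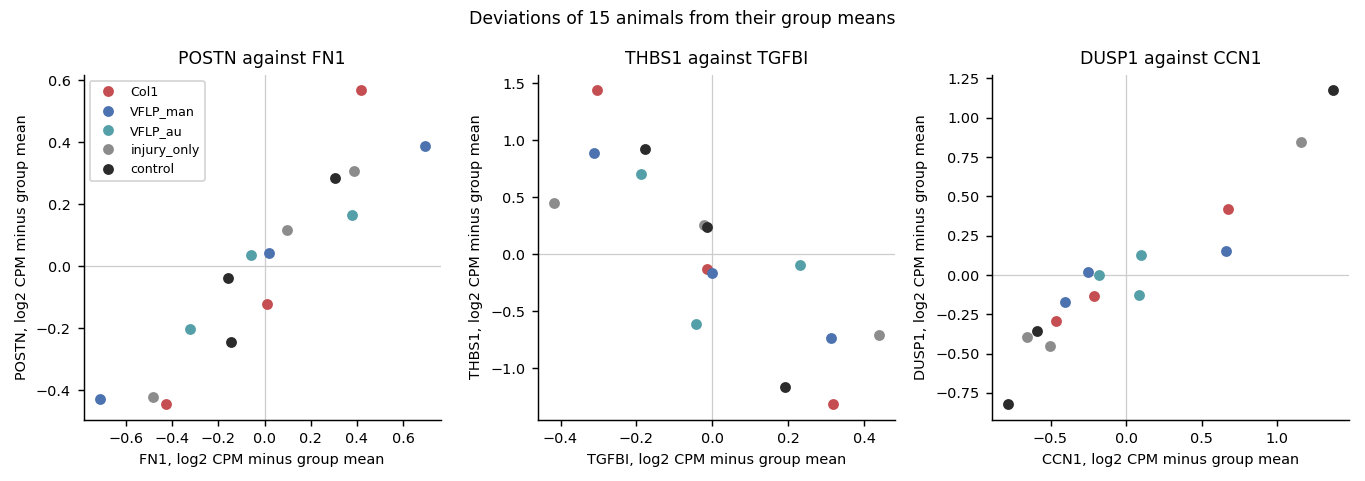
Deviation of each of 15 animals from its group mean (log2 CPM) for POSTN against FN1, THBS1 against TGFBI and DUSP1 against CCN1. Points are animals coloured by group. POSTN followed FN1 (r 0.93), THBS1 ran against TGFBI (r -0.83), and the upper right points of the last panel are control animal 2 and injury_only animal 2.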

How the data were processed

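The authors deposited raw counts of reads per gene for each library, made with STAR 2.7.10b per the submitters' processing notes. They were not normalized. The genome build is not given in the sources used here. The deposited files hold an unstranded count and a count for either strand. The count of the last column was used, with the unstranded one as an alternative. The 3.11 to 5.07% of gene reads on the other strand were not used. TNC and THBS1 had 5.32% and 6.03% fewer unstranded than stranded reads, as where a gene on the other strand overlaps. The 4 rows that name no gene (23.2 to 44.7% of all reads) were left out of library sizes.

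Tests used R 4.3.3 with edgeR 4.0.16: TMM factors, filterByExpr with a minimum count of 10 and the quasi-likelihood F test. Benjamini-Hochberg adjustment ran over all genes tested (17770 or 17815; 16819 for sides), with 0.05 as the threshold. The SE is approximate, the log2 fold change divided by the square root of F. Replicates are separate animals by the labels' animal numbers, and the folds of an animal were summed. Injury_only against control and the pairs of materials used 16 units with batch as a covariate, injury_only animal 1 being divided by batch. The batch term takes up the batch D fold of that animal, so injury_only against control rests on the batch C libraries. Other comparisons used 15 animals without a batch term. Sides were compared in 28 libraries of 14 animals, paired by animal. The method was tested on simulated counts. By the labels each group has its own animals, and no pairing across groups is named. The correlation of deviations was not above 0.1 for every pair in any comparison, which by itself could not exclude a pairing.

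Log2 CPM for likeness used a prior count of 2. Of 239 genes in 15 lists, 212 were found. Alternatives were DESeq2 1.42.0, its size factors, no filter on low counts, a replicate block, left or right folds alone, unstranded counts, batch handled the other way, 2 groups alone, the muscle level as a covariate, and each animal left out. Leaving out the batch D library of injury_only and the test of side between groups were added after the data were seen. The members and lists were chosen with earlier results of these data known. By rule, every member is given by level, and tests are given for members past the threshold or, where fewer than 3 passed, for the 3 of smallest p. Up to 3 called genes per list and the 3 genes most like each member could be named.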

Additional observations from a re-analysis of the deposited data

Results flagged for a closer look

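In 6 of 50 sets of 6 folds (10 members in 5 groups), the highest fold stood apart from the nearest of the others by more of the range than Dixon's 95% limit allows. Chance flags about 1 in 20 sets of independent values, and the folds here are not independent, since each set holds 2 folds from each of 3 animals. The right fold of VFLP_man animal 1 did so for TNC and THBS2, with TNC at 16.5 CPM (next 5.38 CPM) and THBS2 at 10.1 CPM (next 1.58 CPM). The right fold of VFLP_au animal 1 had THBS2 at 4.84 CPM (next 2.14 CPM). The left fold of injury_only animal 2 stood apart for SPARC, at 958 CPM (next 622 CPM), and for TGFBI, at 64.6 CPM (next 42.0 CPM). The left fold of control animal 1 had SPP1 at 35.8 CPM (next 9.33 CPM).

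Right over left ran in opposite directions in all animals of Col1 and control for 4 members. The log2 difference between the groups was -2.04 for FN1 and -1.98 for POSTN, which passed the test of the difference, and -0.91 for SPARC and -1.67 for THBS2, which did not. The same held for VFLP_man and control with TNC (1.40) and CCN2 (1.22), and for Col1 and VFLP_au with SPP1 (-1.71), none of which passed the test of the difference.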

How the results depend on the processing

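The values that follow are counts of members called. For injury_only against control (1 called), DESeq2 gave 3 and right folds alone 3 (1 higher and 2 lower). No filter on low counts, the replicate block, left folds alone, the 2 groups alone and the muscle covariate gave 0, as did each animal left out (0 to 0). For Col1 against injury_only (0 called) DESeq2 gave 1. For VFLP_man against injury_only and against Col1 (0 called each) DESeq2 gave 1 and left folds alone 1. For Col1 against control (3 called) left folds gave 0, right folds 7 (2 higher and 5 lower), the batch term 0 and the muscle covariate 0. For VFLP_man against control (3 called) DESeq2 gave 5, right folds 6 (1 higher and 5 lower), the batch term 0 and the muscle covariate 0, and single animals left out 2 to 4. For VFLP_au against control (2 called) DESeq2 gave 5, right folds 4, the batch term 0 and the muscle covariate 0, and single animals left out 2 to 3. For the difference in side between Col1 and control (2 called), leaving out single animals gave 0 to 2. In every case the cause was not tested.

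Of 566 values of named members under alternatives, 504 kept their direction and side of the threshold, 50 lost a call, 9 gained one and 3 turned round. The log2 fold change of FN1 in VFLP_au against Col1 turned to -0.11 in left folds. In VFLP_man against VFLP_au those of POSTN and TNC turned to -0.32 and -0.46 under the muscle covariate. None of the 3 passed in either direction. Animal numbers share only a number across groups, and the replicate block changed 3 member calls: POSTN was lost in injury_only against control (adjusted p = 0.0633) and in VFLP_man against control (0.0536), and CCN1 was gained in VFLP_man against control (log2 fold change -1.48, adjusted p = 0.0485). With 3 animals per group the error of a fold change is wide, and depth is a further limit for SPP1, THBS2 and TNC, whose shallowest libraries held 10, 14 and 22 reads.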
